A study of Mus musculus with 21 samples.

Results

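The 4 libraries described here are the H3K36me3 peak lists of 2 Setd2 knockout (KO) lines at day 5, each line grown in control medium and under methionine restriction. They were chosen by their labels, as the day 5 knockout libraries of 20 H3K36me3 libraries in all, and were compared within each line. Chromatin carrying the mark was immunoprecipitated and sequenced from C2C12, mouse myoblasts that can fuse into muscle fibres in the dish. KO line 1 and KO line 2 each gave 1 library per medium, and the wild-type (WT) cells that serve here as comparator gave 2 libraries per medium on the same day. All the groups share the C2C12 background, and both KO lines carry the Setd2 knockout in both media. How the lines were made, whether each is a single clone, the methionine level of the medium and what day 0 marks are not given in the sources used here. The labels do not say that libraries came from separate cultures, so every p-value measures the spread between these libraries, which may be technical.

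H3K36me3, trimethylated lysine 36 of histone H3, is laid down over the bodies of transcribed genes, where SETD2 travels with elongating RNA polymerase II. SETD2 is regarded as the main enzyme of the trimethyl state in mammals, while enzymes such as NSD1, NSD2, NSD3 and ASH1L add fewer methyl groups. The methyl groups come from S-adenosylmethionine, which cells make from methionine, so the supply of methionine can limit histone methylation.

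A peak list says where the mark was called above background and how far each call extended, and it holds no read depth, so the depth of each library is unknown and a short list can come from few reads. Cover is used below for the length of sequence inside peaks, in Mb for a library and as a percentage of the gene body for a gene. A gene body is the whole RefSeq gene, exons and introns together, on assembly GRCm38.p6. In bulk cells, fewer marked cells and less of the mark in each cell cannot be told apart. The 4 lists differed widely in size before any comparison of media: KO line 1 had 64530 peaks in control and 52487 in restricted medium, and KO line 2 had 11854 and 13880, against 63423 to 87398 in the 4 WT libraries of day 5. KO line 1 in control medium at day 5 covered 74.1 Mb, more than the 0.307 to 17.7 Mb of its 3 libraries of days 0 and 1, and 82.3% of that length lay in a peak of some WT library. Each KO line 1 difference below has this library on its control side, and the part that its position played was not tested.

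The knocked-out gene was read first, although the cover of a gene shows where the mark lies and does not check a deletion. The body of Setd2 (chr9:110532500-110618633) was 24.04% covered in KO line 1 in control medium and 2.67% in restricted medium, and it was listed at 0 in both libraries of KO line 2. The 4 WT libraries gave 82.8% and 78.4% in control and 55.6% and 60.7% in restricted medium. All 4 knockout libraries therefore lay below every WT library. The difference between media in KO line 1 did not pass limma's test (adjusted p = 0.0723).

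Markers of the muscle lineage were read next. Myod1, Myog and Myh3 were listed at 0 in all 4 knockout libraries, and Myf5 in all 8 libraries of day 5. Myod1, the myogenic master regulator, was 66.8% and 78.4% covered and Myog 91.7% and 93.4% covered in the WT control libraries. Ttn, the giant sarcomere protein, was 92.1% and 73.8% covered in KO line 1 in control and restricted medium, Vim 96.5% and 88.0%, and Des 49.6% and 39.6%. KO line 2 was at 0 for each of these genes in both media, and of the 11 muscle markers read only Mef2c had cover there, 0.186% and 0.340%. Of the 11, Acta1, Tnnt1 and Tnnt3 also had cover in KO line 1. Among the lists of other cell types, those of liver, blood, epithelium, fat, bone and neuron each had a median cover of 0 in KO line 1 in control medium, and no gene of the liver, blood, epithelium or fat list had enough cover to be tested. Runx2, a bone regulator, was 25.2% and 25.3% covered in KO line 1, and WT control libraries had 23.3% and 20.8%. The neuronal Syt1 had 3.51% and 7.37%, the fat regulator Pparg 3.78% and 5.13%, Tubb3 0 and 4.10%, Alpl 0 and 1.06%, Cdh1 0 and 0.532%, Ptprc 0 and 0.253% and the neuronal Rbfox3 0.0993% and 0.

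Some of the sequences that tell the KO line 2 libraries apart are shown here, because their promoter peaks were the clearest qualitative difference between its media. They run from 250 bases before to 50 bases after the gene's start, 5′ to 3′ on the gene's strand, from the RefSeq promoter table on GRCm38.p6. Capitals mark each CG dinucleotide, which reads the same on both strands. At least 1 CG was found in 97.1% of all 19080 promoter windows of that length that could be matched to a measured gene. They belong to 15328 of the 19304 genes. The first 4 promoters lay wholly inside KO line 2 control peaks of high authors' fold enrichment (4.10 to 4.95), and the last pair inside peaks of the restricted library (3.75 and 3.59). Counted once per gene, with chromosomes 8 and 18 left out, 196 promoters lay wholly inside control peaks and 4 inside restricted peaks. Those shown were picked after the values were seen.
Gemin8: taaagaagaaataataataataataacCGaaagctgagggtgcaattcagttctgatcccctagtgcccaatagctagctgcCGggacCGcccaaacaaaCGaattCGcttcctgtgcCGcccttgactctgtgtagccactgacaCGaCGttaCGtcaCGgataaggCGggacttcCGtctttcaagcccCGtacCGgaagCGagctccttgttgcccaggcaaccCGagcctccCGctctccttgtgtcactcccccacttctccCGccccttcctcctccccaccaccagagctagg
Ddx10: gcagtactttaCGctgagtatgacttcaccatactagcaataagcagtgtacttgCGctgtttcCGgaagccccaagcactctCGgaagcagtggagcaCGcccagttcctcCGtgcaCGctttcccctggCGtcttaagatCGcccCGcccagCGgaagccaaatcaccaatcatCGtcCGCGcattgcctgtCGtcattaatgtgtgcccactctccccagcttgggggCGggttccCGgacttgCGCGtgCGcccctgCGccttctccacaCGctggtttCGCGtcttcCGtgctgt
Preb: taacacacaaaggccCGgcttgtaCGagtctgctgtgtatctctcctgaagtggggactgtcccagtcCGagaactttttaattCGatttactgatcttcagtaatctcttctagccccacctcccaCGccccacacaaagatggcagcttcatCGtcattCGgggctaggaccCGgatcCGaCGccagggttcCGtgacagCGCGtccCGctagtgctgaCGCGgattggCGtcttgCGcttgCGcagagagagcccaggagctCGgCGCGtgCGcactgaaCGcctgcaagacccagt
Cox6a1: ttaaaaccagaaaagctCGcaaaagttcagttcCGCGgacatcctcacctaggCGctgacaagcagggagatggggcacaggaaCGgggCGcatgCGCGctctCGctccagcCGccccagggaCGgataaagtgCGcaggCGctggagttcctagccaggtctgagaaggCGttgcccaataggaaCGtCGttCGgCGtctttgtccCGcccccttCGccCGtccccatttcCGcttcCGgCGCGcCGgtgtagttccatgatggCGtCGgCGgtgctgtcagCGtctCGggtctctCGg
Cxcl15: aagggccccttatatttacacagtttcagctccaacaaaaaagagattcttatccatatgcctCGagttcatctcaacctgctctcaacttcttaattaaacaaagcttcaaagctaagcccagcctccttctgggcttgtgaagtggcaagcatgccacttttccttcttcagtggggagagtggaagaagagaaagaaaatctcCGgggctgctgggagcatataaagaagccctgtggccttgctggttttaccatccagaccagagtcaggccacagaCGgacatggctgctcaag
Gm28710: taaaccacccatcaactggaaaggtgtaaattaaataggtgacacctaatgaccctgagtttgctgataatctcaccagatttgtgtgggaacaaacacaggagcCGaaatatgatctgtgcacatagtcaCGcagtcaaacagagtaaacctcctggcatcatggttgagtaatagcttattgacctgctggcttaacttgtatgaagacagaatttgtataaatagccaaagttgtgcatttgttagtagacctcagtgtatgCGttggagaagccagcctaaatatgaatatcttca
The Gemin8 promoter (chrX:166170204-166170503, plus strand) has 18 CG, that of Ddx10 (chr9:53248063-53248362, minus strand) 25, that of Preb (chr5:30960278-30960577, minus strand) 24 and that of Cox6a1 (chr5:115348909-115349208, minus strand) 32. Gemin8 encodes a subunit of the SMN complex that assembles spliceosomal particles, Ddx10 an RNA helicase, Preb a factor of vesicle export from the endoplasmic reticulum and Cox6a1 a subunit of cytochrome c oxidase. The Cxcl15 promoter (chr5:90794284-90794583, plus strand) and the Gm28710 promoter (chr5:16791541-16791840, plus strand) have 3 CG each. The peaks over the first 4 were 367 to 999 bp wide, and those over the last pair 743 and 1575 bp.

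The first comparison asked how peak cover inside and outside genes differed between media in each line. In KO line 1, cover inside gene bodies was 66.8 Mb in control and 35.5 Mb in restricted medium, which is 0.531 times the control. For KO line 2 it was 2.17 Mb and 2.16 Mb, or 0.992 times. Cover outside gene bodies was higher under restriction in both lines, by nearly the same factor: from 7.31 to 10.3 Mb in KO line 1, or 1.41 times, and from 3.51 to 4.97 Mb in KO line 2, or 1.42 times. The WT libraries went the other way outside genes, from 7.98 ± 0.469 Mb to 5.06 ± 0.131 Mb (SD, n = 2 per medium), and their gene-body cover went from 169 ± 8.41 Mb to 128 ± 1.98 Mb.

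**Figure D1:**
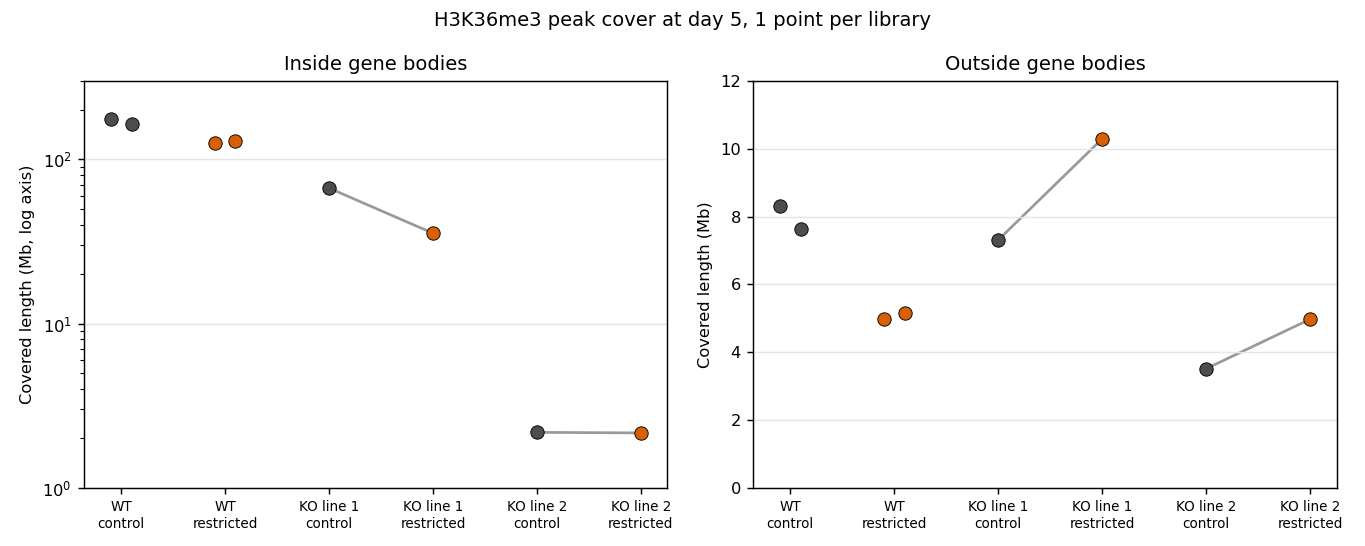
H3K36me3 peak cover at day 5 inside gene bodies (left, Mb on a log axis) and outside them (right, Mb on a linear axis), with 1 point per library and a line joining the media of each KO line. Gene-body cover was 66.8 and 35.5 Mb in KO line 1 and 2.17 and 2.16 Mb in KO line 2, while cover outside genes was higher under restriction in both KO lines and lower in WT.

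Total cover moved in opposite directions in the lines. It was 38.3% lower under restriction in KO line 1, at 45.8 Mb, and 25.4% higher in KO line 2, where it went from 5.69 to 7.13 Mb. The number of peaks did the same, with log2 ratios of -0.30 and 0.23. Gene bodies make up 45.8% of the assembled span examined. They held 90.1% of KO line 1 cover in control medium and 77.5% under restriction, and 38.2% and 30.3% of KO line 2 cover, so KO line 2 peaks lay inside genes less than a uniform spread over the genome would place them. The WT shares were 95.5% ± 0.0391 and 96.2% ± 0.0378 (SD, n = 2 per medium).

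With 1 library per line and medium, these library totals could not be tested within a line. The exact two-sided permutation test over lines exchanged the media within each line, which allows 4 arrangements and no p below 0.5. The mean log2 ratio over both lines was -0.18 for total cover (exact permutation p = 1) and -0.04 for peak number (exact permutation p = 1), where the lines oppose each other. It was -0.46 for gene-body cover, 0.50 for cover outside genes and -10.3 percentage points for the gene-body share, each with an exact p = 0.5, the smallest that can be reached. After Benjamini-Hochberg adjustment over the 6 library tests every value was 1. Against WT, the restriction effect on total cover differed by 0.23 on the log2 scale (exact permutation p = 0.667 over 24 arrangements). The same difference for cover outside genes, a test added after the values were seen, was 1.15 with an exact permutation p = 0.0833, the lowest value within reach of 24 arrangements.

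The higher cover outside genes was found on most chromosomes but was uneven. Outside gene bodies, cover per Mb of chromosome was higher under restriction on 18 of 20 chromosomes in KO line 1 (all but 7 and X). In KO line 2 it was higher on 14 of 20 (all but 6, 7, 11, 17, 19 and X). Among the larger gains, chromosome 10 went from 0.588 to 1.04 Mb in KO line 1 and chromosome 1 from 0.497 to 0.717 Mb in KO line 2. In KO line 1 the ratio ran from 0.675 on chromosome X to 1.80 on chromosome 3, and in KO line 2 from 0.724 on chromosome X to 1.64 on chromosome 4. In WT the same ratio was below 1 on each of the 20 chromosomes, from 0.542 to 0.793. KO line 2 peaks were densest on chromosome 15, with 12.6 peaks per Mb in control and 16.1 in restricted medium, and chromosome X had 1.38 and 0.908. Chromosome 15 also had a high density in KO line 1, with 36.9 and 34.6 peaks per Mb.

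Whether the media mark the same positions was asked by splitting each line's cover into 3 parts. In KO line 1, 27.3 Mb was covered in both media, 46.8 Mb in control only and 18.4 Mb in restricted only. The cover of both media was 36.9% of the control library and 59.7% of the restricted library. Its Jaccard index, shared over combined length, was 0.295. WT control against WT restricted libraries gave 0.553 to 0.575, and the WT replicate pairs within a medium 0.692 and 0.697. The control-only part lay mostly where WT cells carry the mark: 91.3% of it was in gene bodies and 83.5% in a peak of some WT library. Of the restricted-only part, 61.6% was in gene bodies and 26.2% in a WT peak. Its 7.07 Mb outside genes was 3.06% inside WT peaks, while 28.7% of the control-only cover outside genes was. Peaks of all WT libraries together cover 9.64% of the span and 0.974% of the span outside genes, so each of these shares was above that base. Control peaks of KO line 1 that overlapped a restricted peak, 36.2% of all, were wider than the others (median 963 bp against 506 bp) and had a median authors' fold enrichment of 2.96 against 2.78.

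In KO line 2, 1.21 Mb was covered in both media, 4.47 Mb in control only and 5.92 Mb in restricted only. The shared part was 21.3% of the control library and 16.99% of the restricted library (Jaccard index 0.104). Between 2.07% and 4.98% of each part lay in a peak of some WT library, where all WT peaks together cover 9.64% of the span. The KO line 2 cover shared by both media overlapped KO line 1 more, with 52.9% of it inside a day 5 peak of KO line 1, compared with 24.96% of the control-only and 20.1% of the restricted-only part. The day 5 peaks of KO line 1 together cover 3.40% of the span.

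The regions of highest authors' fold enrichment that KO line 2 held in both media were short and were not particular to it. The first, chr1:113904032-113904515, had 14.8 in control and 18.5 in restricted medium and lies outside genes, 26409 bp from the lncRNA gene Gm32985. The region chr16:54153328-54153792 had 10.98 and 11.9, and chr10:128771636-128772116, which is 4184 bp from the pseudogene Rpsa-ps2, had 10.6 and 12.3. The region chrX:69619408-69619878, inside the gene Aff2, had 10.1 and 10.4. Each was 465 to 484 bp wide, and each was also called in both KO line 1 libraries of day 5, in all 10 WT libraries and in the 3 other KO line 2 libraries. A further region of this kind lay on chromosome 8.

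Along genes of at least 10 kb (11080 genes, each cut into 10 equal bins from start to end), KO line 1 kept the shape of the mark under restriction at a lower level. In control medium its mean cover rose from 3.25% in the first bin to 14.4% in bin 8 and was 11.9% in the last. Under restriction the same bins had 2.01%, 6.39% and 4.78%. KO line 2 had no such slope. In its control library the first bin stood out, with 0.645% against 0.0650% to 0.147% in the other 9, and in its restricted library all 10 bins lay between 0.0448% and 0.0907%.

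KO line 2 in control medium had many peaks at promoters. In control medium, 1062 of its 11854 peaks (8.96%) were centred within 1 kb of any start in the RefSeq promoter table, against 159 (1.15%) of 13880 under restriction. At the start itself, 3.26% of 19080 start sites of the measured protein-coding genes lay in a control peak and 0.0629% in a restricted peak. Counted by promoter window, peaks touched 748 genes (4.88% of 15328) in control medium and 19 (0.124%) under restriction, with 10 genes in both. Counting peaks with −log10 q ≥ 3 alone, the totals were 117 and 2. There is 1 library per medium, so the difference has no replicate check. The other 6 libraries of day 5 touched 190 to 455 promoters, and 26 of the 748 genes were touched in KO line 1 in control medium and 26 under restriction. Of all 15328 genes with a promoter, those KO line 1 libraries touched 213 (1.39%) and 206 (1.34%).

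**Figure D2:**
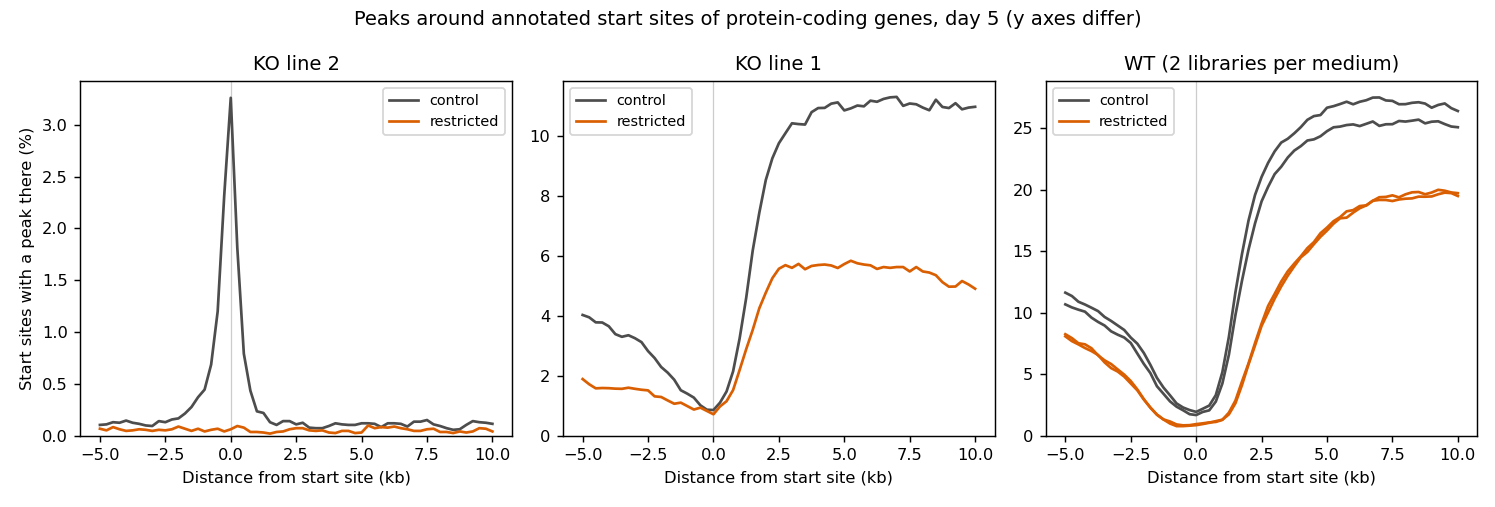
Share of annotated start sites of protein-coding genes (%) that lay in a peak at each distance from the start (kb), for the day 5 libraries of KO line 2, KO line 1 and WT, with grey for control and orange for restricted medium. KO line 2 in control medium reached 3.26% at the start, where the other 7 libraries lay between 0.0629% and 1.94% and those of KO line 1 and WT rose further into the gene.

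The promoters in question were rich in CG, as the sequences of Ddx10, Preb and Cox6a1 above show. The 823 touched windows of the control library, which belong to the 748 genes, had a median of 25 CG in 300 bases, against 15 over all promoters, and 75.2% of them had at least 20, against 39.3% of all. The 20 windows of the 19 genes touched under restriction had a median of 6.5, and the touched promoters of the other 6 libraries of day 5 had medians of 5 to 8. The bodies of the genes concerned were often marked in WT: 55.7% and 54.3% of the 748 had at least 50% cover in the WT control libraries, against 27.8% and 25.5% of all genes with a promoter. In KO line 2 itself their median body cover was 0.874% in control medium and 0 under restriction. The body of Preb, for example, was 82.6% and 76.5% covered in the WT control libraries and 3.28% in KO line 2 in control medium.

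Without the peaks centred within 1 kb of a start, an alternative chosen after the values were seen, gene-body cover of KO line 2 was 1.83 Mb in control and 2.11 Mb in restricted medium. The log2 ratio then turned from -0.01 to 0.20. Total cover outside these peaks was 5.202 and 7.06 Mb.

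Gene by gene, the mark over KO line 1 genes was lower under restriction and in KO line 2 was too sparse to compare in most. Of 19304 protein-coding genes of at least 2 kb, 1622 (8.4%) were marked in KO line 1 in control medium, meaning that at least 50% of the body lay in peaks, and 640 (3.32%) under restriction. Of these, 606 were marked in both, 1016 in control only and 34 in restricted only. No gene of KO line 2 was marked in either medium (0.0%), 2224 genes had any cover in control medium and 949 under restriction, 565 in both. The highest cover in KO line 2 was that of Ly6e, a lymphocyte antigen 6 family gene, at 43.8% and 35.1%, and Ly6e was 95.4% and 88.1% covered in KO line 1.

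A difference of at least 25 percentage points between media was used as a fixed size for single libraries. In KO line 1, 1774 genes (9.19%) were lower by that much and 45 (0.233%) higher. KO line 2 had 6 (0.0311%) lower and 0 (0.0%) higher. The WT replicates differed by as much, in either direction, for 93 genes (0.482%) in control and 75 (0.389%) in restricted medium.

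The test across genes was limma's on the percentage of the gene body in peaks, fitted to all 20 libraries in 15 groups. It takes its spread from the WT replicate pairs alone, with 5 residual degrees of freedom, so the lone library of a KO line and medium is assumed to vary like a WT replicate. Of 8896 genes tested, 2149 were called lower under restriction in KO line 1 (24.2%) and 77 higher (0.866%) at an adjusted p under 0.05, and the median difference over all tested genes was -5.81 points. For KO line 2, 0 were called lower (0.0%) and 2 higher (0.0225%) by limma, and 29 had an unadjusted p under 0.05. The restriction effect itself differed between the lines for 1273 genes (14.3%), of which 1223 were more negative (13.7%) and 50 more positive (0.562%) in KO line 1. At 1073 of the 1273, KO line 2 was listed at 0 in both media, so the difference there is the change of KO line 1 alone. With the lists of each line cut to the same covered length, the median difference in KO line 1 was 0 and limma called 1055 lower and 119 higher. Of the 2149 genes called lower, 1046 were also called lower there, and of the 77 called higher, 59 also higher.

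**Figure D3:**
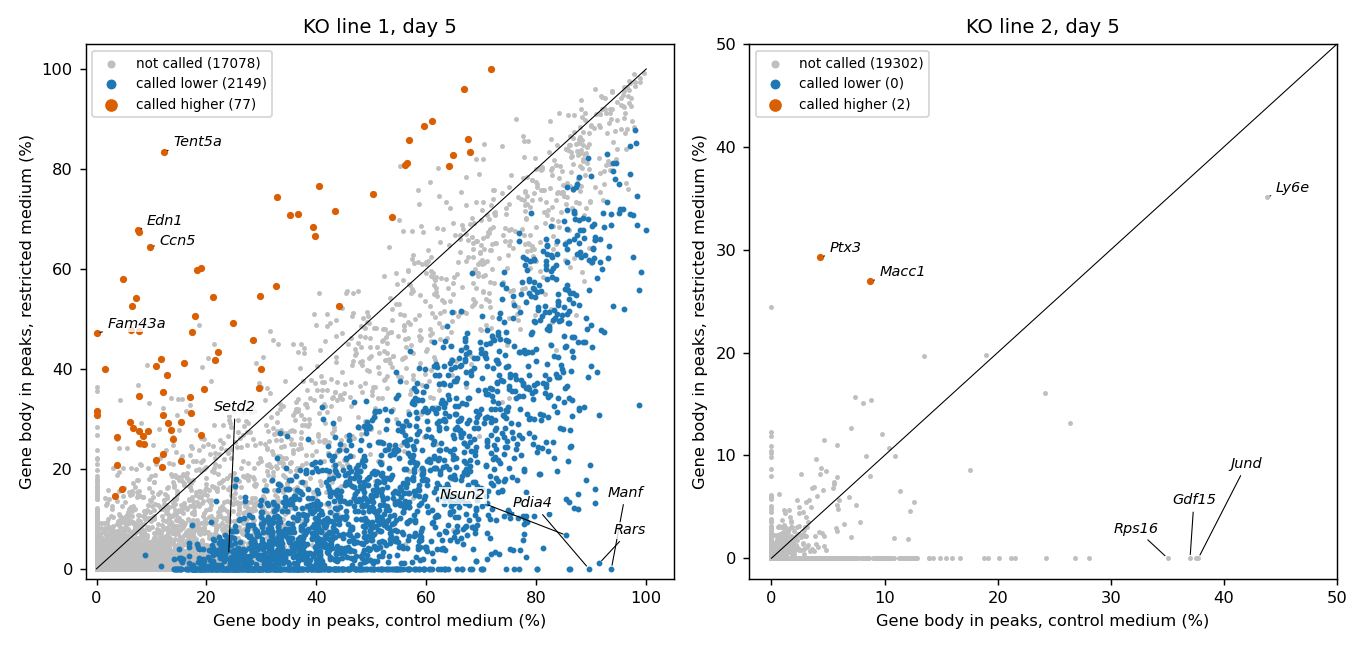
Percentage of each gene body in peaks in control (x axis) and restricted medium (y axis) for 19304 genes in KO line 1 (left) and KO line 2 (right, shorter axes), with blue for genes called lower and orange for genes called higher by limma. The 2149 genes called lower in KO line 1 lie below the diagonal up to 100% of control cover, while KO line 2 has 2 called genes and no gene above 43.8%.

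Among the genes with the largest fall in KO line 1, several make or fold proteins. Rars, the arginyl-tRNA synthetase (chr11:35808381-35834528), was 91.4% covered in control medium and 1.09% under restriction. The 4 WT libraries had 79.9%, 85.1%, 91.1% and 92.4% with no lower value under restriction. The difference in KO line 1 was -90.4 ± 3.69 points (SE, limma adjusted p = 6.02e-06), and it differed from that of WT by -99.6 points (limma adjusted p = 2.85e-05). Pdia4, a protein disulfide isomerase of the endoplasmic reticulum (chr6:47796141-47813512), went from 89.6% to 0, while WT had 68.1% and 65.6% in control and 63.2% and 63.4% in restricted medium. Manf, a factor secreted from the endoplasmic reticulum under stress (chr9:106888753-106891938), went from 93.7% to 0, with WT at 68.8% and 51.2% in control and 44.8% and 23.8% in restricted medium. Ssr2, a subunit of the translocon-associated complex, went from 86.0% to 0 and Nsun2, an RNA cytosine methyltransferase, from 85.5% to 6.68%. Ssr2 had no difference over peaks with −log10 q ≥ 3, where its limma adjusted p was 1.

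Further genes of this rank were the ribosomal protein genes Rps9 and Rps18, each at 0 under restriction from 76.8% and 80.1%, the respiratory chain gene Ndufa4 (80.1% to 0), the mitochondrial protease gene Lonp1 (90.8% to 13.2%), Pck2, the mitochondrial PEP carboxykinase (81.2% to 4.07%), and the splicing factor gene Cwc15 (75.9% to 0). Cwc15 lay between 83.8% and 87.0% in all 4 WT libraries. Rps18 was also low in WT under restriction, at 0 and 10.9%, and its effect did not differ from that of WT by limma (adjusted p = 0.946). It has 6 annotated pseudogenes, so its reads may have been split between copies. All of these genes were listed at 0 in both libraries of KO line 2. Ndufa4 lost its call with the lists cut to the same covered length, where its limma adjusted p was 1.

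**Figure D4:**
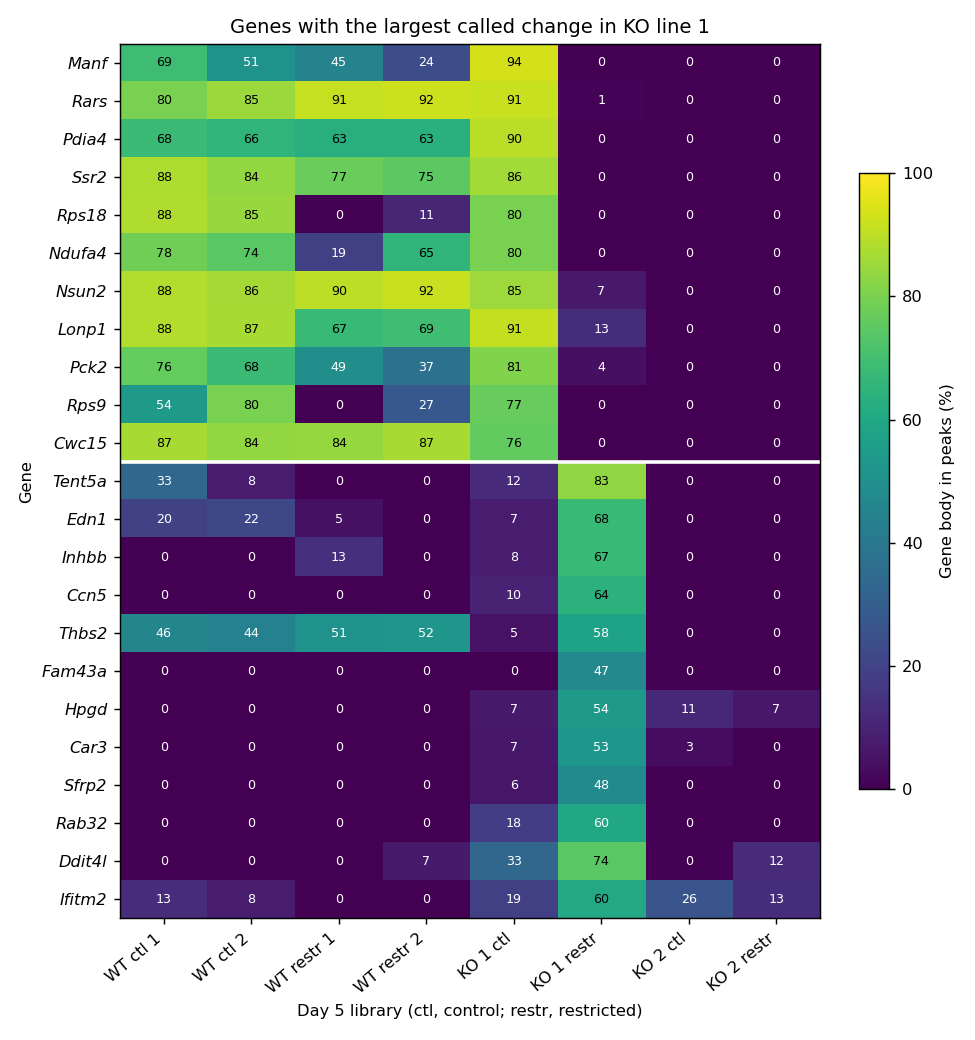
Percentage of the gene body in peaks (colour and printed value, 0 to 100%) in each of the 8 libraries of day 5 for 11 genes called lower (top) and 12 called higher (bottom) with large differences in KO line 1. The top genes are high in KO line 1 in control medium and lie between 0 and 13.2% under restriction, and 6 of the bottom genes are at 0 in every WT library.

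Fewer genes gained cover in KO line 1, and many of those were not marked in WT. Tent5a, a poly(A) polymerase family gene (chr9:85320439-85327150), went from 12.3% to 83.5%. Its WT values were 32.9% and 7.87% in control medium and 0 in both restricted libraries, and limma gave 71.2 ± 9.13 points (SE, adjusted p = 0.000762). Edn1, which encodes the vasoconstrictor endothelin 1, went from 7.48% to 67.8%, and Inhbb, a subunit of activin B, from 7.69% to 67.4%. Ccn5, a matricellular protein gene, went from 9.79% to 64.4% and Thbs2, thrombospondin 2, from 4.76% to 57.9%. Thbs2 was 44.0% to 52.0% covered in all 4 WT libraries. Sfrp2, a secreted Wnt antagonist, went from 6.23% to 47.9%.

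Of the rest of this rank, Fam43a went from 0 to 47.1%, Hpgd, the enzyme that inactivates prostaglandins, from 7.14% to 54.2%, Car3, a muscle carbonic anhydrase, from 6.51% to 52.6% and the small GTPase gene Rab32 from 18.2% to 59.8%. Ddit4l, a relative of the mTORC1 inhibitor gene Ddit4, went from 32.9% to 74.4%, and Ifitm2, an interferon-induced gene, from 19.01% to 60.2%. Car3 had 32.2% at day 0 in the same line and 60.7% in its control library of day 1, so the day 5 control value was the lowest of these. Of the 77 genes called higher, 25 were at 0 in all 4 WT libraries of day 5, and 35 entered the test only through the restricted library of KO line 1. These 35 had to differ to be tested, and Inhbb, Ccn5, Fam43a, Hpgd, Car3, Sfrp2 and Rab32 were among them. At all of these named genes but Inhbb the WT replicates had no spread. The SE there, 1.74 to 2.59 points, was borrowed from other genes by limma, so these calls rest on no spread measured at the gene. In WT, limma called 25 of the 77 lower under restriction and 1 higher, against 44.5% and 4.38% of all tested genes.

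The genes called lower in KO line 1 were compared with the WT response, which comes from other libraries. In WT, 3957 of 8896 genes (44.5%) were called lower under restriction and 390 (4.38%) higher. Of the 2149 genes lower in KO line 1, 1102 were also lower in WT, which is 51.3% of them and 27.8% of the WT genes. Their median cover went from 48.9% to 9.83% in KO line 1 and from 77.6% to 63.2% in the WT means. The difference of the effects was called for 2273 genes (25.6%), 1134 more negative and 1139 more positive in KO line 1. Of the 2149 genes, 1014 (47.2%) were more negative in KO line 1 than in WT and 61 (2.84%) more positive. The 2149 were chosen by their fall in KO line 1, and that fall enters the difference. The lean towards more negative was thus partly set in advance.

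Gene length went with the calls in KO line 1. Of genes of 2 to 10 kb, 21.0% were called lower, of 10 to 50 kb 29.9%, of 50 to 200 kb 15.3%, and of longer genes 6.63% (12 of 181). Their median control cover was 14.03%, 14.12%, 7.85% and 5.22%, so the longest genes also had less cover to lose. The part that this played in the calls was not tested.

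By pathway, the genes of the amino acid response were among those that lost the mark in KO line 1. When amino acids are short, uncharged tRNA activates the kinase GCN2, and the transcription factor ATF4 then raises genes of amino acid synthesis, transport and tRNA charging. Of 27 genes of this list measured, 23 were tested, and limma called 16 lower (69.6%, against 24.2% of all tested genes) and 0 higher. With the lists cut to the same covered length it called 10 of 21 lower, against 1055 of all 8130 genes tested there. Over peaks with −log10 q ≥ 3 it called 9 of 19 lower, against 993 of 7226. In the main setting the median difference of the 23 was -39.7 points, against -5.81 over all tested genes. The list's median cover went from 52.8% to 0.824%. No length class of tested genes above had a median control cover over 14.12%, so these genes had more cover to lose. The part that this played in the share called was not tested, here or in the lists below. WT cells also had 16 of the 23 called lower (44.5% of all tested genes were) and 0 higher, with the list's median cover going from 56.2% to 21.5%. The effect was called more negative in KO line 1 than in WT for 7 and more positive for 3, against 12.7% and 12.8% of all tested genes. Ddit3, which encodes the transcription factor CHOP, went from 99.1% to 59.4% (limma adjusted p = 0.0131), and its effect did not differ from that of WT (adjusted p = 0.53). Among genes picked after their values were seen, Psat1, an enzyme of serine synthesis, went from 62.0% to 0 in KO line 1, while the WT libraries lay between 77.2% and 81.2%. Trib3, a pseudokinase induced by ATF4, went from 86.8% to 12.2%, and Chac1, which degrades glutathione, from 90.6% to 16.01%.

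Other members of the list were not called. Ddit4, an inhibitor of mTORC1, was 91.9% covered in control and 92.0% in restricted medium in KO line 1, whereas the WT libraries had 82.1% and 72.4% in control medium and 0 in both restricted libraries. Slc38a2, a transporter of neutral amino acids, had 88.4% and 90.3%, and Nupr1, a stress-induced chromatin protein, had 88.4% and 80.2%. For each of these 3 genes limma called the effect of KO line 1 more positive than that of WT, with adjusted p of 0.000397, 0.00915 and 0.000719. These 3 genes were named for high mean cover over both media of KO line 1, which favours genes without a large fall. The same holds for genes named by that rule in the lists below. All of Nupr1 overlaps another gene, so its cover cannot be told from that of its partner. The aminoacyl-tRNA synthetases, a list drawn up after values had been seen, had 14 of 19 called lower (73.7%, against 24.2%) and none higher, with a median difference of -36.5 points. Their median control cover in KO line 1, 78.5%, was also above those of the length classes. Cars, the cysteinyl enzyme, went from 97.5% to 70.9%, Nars from 96.0% to 52.0% and Yars from 86.7% to 55.1%, while Dars had 78.5% and 65.2% and was not called. In WT, limma called 8 of them lower and 1 higher, against 44.5% and 4.38% of all tested genes. The list's median cover in WT went from 84.5% to 76.0%.

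The list of folding and secretion factors of the endoplasmic reticulum, also drawn up after values had been seen, had 18 of 25 tested genes called lower (72%, against 24.2% of all) and 0 higher in KO line 1, and its median cover went from 68.3% to 2.79%. That control median, too, left more cover to lose than in the length classes above. Hspa5, the chaperone BiP, went from 98.4% to 74.6% (limma adjusted p = 0.00155), and in WT from 88.8% and 86.8% to 66.6% and 63.9%. The difference between the effects was -1.25 ± 4.32 points (SE, limma adjusted p = 0.869). Hsp90b1, an HSP90 chaperone of the same compartment, went from 94.4% to 77.9% and Herpud1, a degradation factor, from 98.1% to 85.2%. Ssr3, from the same complex as Ssr2, had 86.5% and 82.7% and was not called. Part of Hspa5, 43.3%, overlaps another gene.

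**Figure D5:**
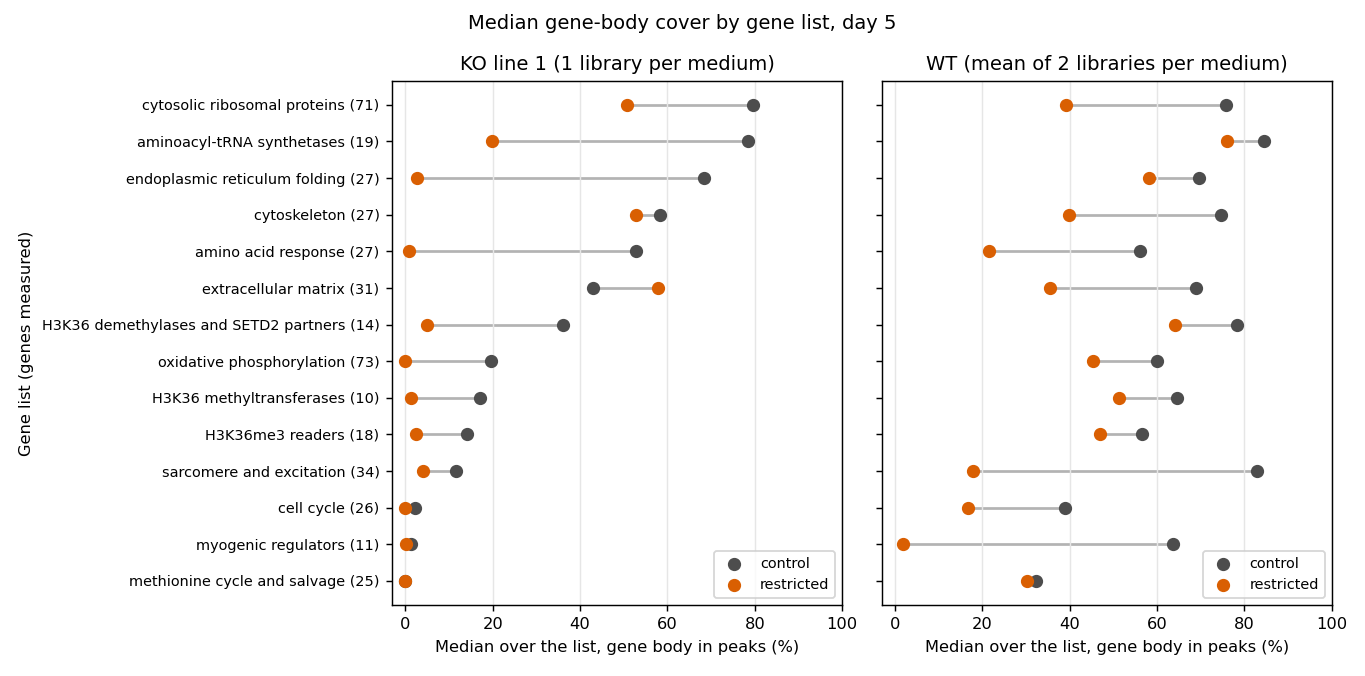
Median cover over each gene list (%, x axis) in control (grey) and restricted medium (orange), in KO line 1 from 1 library per medium (left) and in WT from the mean of 2 libraries per medium (right). The amino acid response went from 52.8% to 0.824% in KO line 1, and the sarcomere list from 82.9% to 17.8% in WT.

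Of the 71 cytosolic ribosomal protein genes, 68 were tested and 28 called lower (41.2%, against 24.2% of all), with none higher, and the list's median cover went from 79.6% to 50.8% in KO line 1. This control median was again above those of the length classes. The members differed among themselves. Rpl3 had 97.8% and 99.1%, Rpl23 94.4% and 87.7%, Rpl11 91.5% and 82.2% and Rpl13a 92.4% and 79.6%, none of them called, while Rps9 and Rps18 went to 0. The Rpl genes given were named for high mean cover over both media and these Rps genes for a large fall. They therefore show the ends of the list. In WT limma called 54 of the 68 lower, against 44.5% of all tested genes, and the median went from 75.7% to 39.1%. Of the 73 oxidative phosphorylation genes, the last list drawn up after values had been seen, 27 of 68 tested were called lower (39.7%, against 24.2% of all) and 0 higher. Their median control cover in KO line 1, 19.6%, was also above those of the length classes. The count called lower was 11 of 66 with the lists cut to the same covered length, against 1055 of all 8130 genes tested there. Over peaks with −log10 q ≥ 3 it was 8 of 65, against 993 of 7226. Of the ATP synthase genes, Atp5a1 went from 85.3% to 65.0% and Atp5g2 from 93.2% to 64.5%, while Atp5b had 96.3% and 77.3% and was not called (limma adjusted p = 0.0721). Cox8a, a subunit of cytochrome c oxidase, had 67.9% and 69.0% and was not called, and over peaks with −log10 q ≥ 3 its difference was -67.9 points (limma adjusted p = 0.000224).

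The genes that use and restore methionine were called about as often as genes at large. Of 25 measured, 13 were listed at 0 in both libraries of KO line 1 and 17 were tested, of which 5 were called lower (29.4%, against 24.2% of all) and 0 higher. Srm, the spermidine synthase, went from 67.0% to 13.1% (limma adjusted p = 0.00122), with WT at 50.5% and 44.4% in control and 52.6% and 43.4% in restricted medium. Mtap, the first enzyme of methionine salvage, went from 63.3% to 32.3%. Mat2a, which makes S-adenosylmethionine, had 86.3% and 82.3% and was not called, and Mat2b, its regulatory subunit, picked after its values were seen, went from 44.2% to 6.71%.

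Genes of the H3K36 machinery were partly covered in KO line 1. Of the methyltransferases, Setd5 went from 71.7% to 30.1% and Nsd3 from 34.7% to 7.58%, and these were the 2 called among 8 tested, Setd2 included (25%, near the 24.2% of all tested genes). Ash1l had 23.2% and 3.83% (limma adjusted p = 0.056). Of the demethylases and SETD2 partners, 7 of 13 tested were called lower (53.8%, against 24.2% of all). Their median control cover in KO line 1, 36.1%, was also above those of the length classes. With the lists cut to the same covered length the count was 4 of 13, against 1055 of all 8130 genes tested there. Over peaks with −log10 q ≥ 3 it was 3 of 12, against 993 of 7226. Kdm4a, an H3K36 demethylase, went from 71.1% to 13.1%, Kdm2a from 59.99% to 26.6% and Supt6, the elongation factor that links SETD2 to the polymerase, from 67.8% to 29.9%. Cdk9, the kinase that releases paused polymerase, had 85.9% and 67.8% and was not called. The WT libraries had 85.9% to 88.9% at Kdm4a in both media. Of the readers of the mark, 3 of 16 tested were called lower (18.8%, below the share of all genes), with Glyr1, a nucleosome-binding reader, at 57.9% and 9.37% and Psip1, the LEDGF gene, at 62.6% and 25.2%. Morf4l1 (MRG15) had 73.9% and 66.9% and Pwwp2b 47.995% and 41.3%, and neither was called. Of Psip1, 56.3% overlaps another gene.

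Among matrix genes, as many were called higher as lower in KO line 1. Of 29 tested, limma called 3 lower (10.3%, against 24.2% of all) and 3 higher (against 0.866% of all). The median difference of the tested genes was 0. The median cover of all 31 measured went from 43.0% to 57.9%, but from 31.2% to 20.9% over peaks with −log10 q ≥ 3, so its direction depends on the peak threshold. Fn1, fibronectin, had 98.8% and 97.4%, Col3a1 93.8% and 95.7%, Col1a2 92.5% and 94.1% and Mmp2, a collagenase, 96.0% and 96.3%, and none of these was called. They were named for high mean cover over both media, which favours genes without a large fall. Mmp2 was 40.3% and 27.1% covered in WT control libraries and 3.08% and 0 in the restricted ones. Higher were Thbs2, given above, and 2 genes picked after their values were seen: Dcn, the proteoglycan decorin, from 7.81% to 47.6%, and Col12a1 from 36.7% to 71.1%. With the lists cut to the same covered length, 0 of 27 tested matrix genes were called lower and 6 higher. Over all 8130 genes tested there, 1055 were called lower and 119 higher.

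The cytoskeleton list had 7 of 26 tested genes called lower (26.9%, near the 24.2% of all) and 0 higher. With the lists cut to the same covered length 2 of 26 were called lower, against 1055 of all 8130 genes tested there. Myh9, a non-muscle myosin, had 91.7% and 88.4% in KO line 1 and was not called, whereas the WT libraries had 96.5% and 95.3% in control and 46.2% and 45.2% in restricted medium. The difference between the effects was 47.0 ± 3.40 points (SE, limma adjusted p = 9.11e-05). Tpm4 had 88.3% and 85.8%, and Tln1 88.4% and 81.6%. Myh9, Tpm4 and Tln1 were likewise named for high mean cover over both media of KO line 1. Of the cell cycle genes, 6 of 22 tested were called lower (27.3%, near the 24.2% of all) and 0 higher. Over peaks with −log10 q ≥ 3, 2 of 12 were called lower, against 993 of all 7226 genes tested there. The replication helicase genes Mcm7 and Mcm6 went from 71.5% to 9.88% and from 65.2% to 31.0%, Cdt1, which loads that helicase, from 58.9% to 6.02%, and Ccnd1, cyclin D1, from 70.0% to 44.0%. Mcm6 was higher in WT under restriction, at 80.6% and 81.2%, than in control medium, at 55.4% and 48.4%.

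Sarcomere and excitation genes lost cover in WT and had a low median cover in KO line 1. Of 32 sarcomere and excitation genes tested, 31 were called lower in WT, against 44.5% of all tested genes. In KO line 1, 5 were called lower (15.6%, against 24.2% of all) and 0 higher. The difference between the effects was called more positive in KO line 1 for 24 of the 32 and more negative for 1. Of all tested genes, 12.8% were called more positive and 12.7% more negative. Of those 24, 5 were listed at 0 in both KO line 1 libraries and 13 had under 10% control cover there, so for them the difference is mainly that of WT. WT median cover went from 82.9% to 17.8%, and that of KO line 1, already low, from 11.6% to 4.14%. With the lists cut to the same covered length the KO line 1 median went the other way, from 0.573% to 4.14%. In that setting 2 of 31 tested genes of the list were called lower, against 1055 of all 8130. Myog went from 91.7% and 93.4% to 0 in WT and was at 0 throughout in KO line 1, and the difference of 92.6 points (limma adjusted p = 4.04e-05) is the WT change alone. Acta1, skeletal actin, had 16.97% and 32.8% in KO line 1, against 92.1% and 94.1% in control and 0 and 17.3% in restricted medium in WT. Within KO line 1, Tnnc1, the slow troponin C, went from 98.6% to 32.8% and Myom2, an M-band protein, from 72.8% to 37.2%, while Chrna1, an acetylcholine receptor subunit, had 55.3% and 51.0% and was not called. Tnnc1 lost its call with the lists cut to the same covered length (limma adjusted p = 0.108). Of the myogenic regulators, 0 of 8 tested were called by limma in KO line 1, in either direction, and 8 were called lower in WT. Mef2d had 70.8% and 54.1%, Six4 50.9% and 48.1% and Mymk, the fusion protein myomaker, 44.6% and 20.5%.

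The effects of KO line 1 and WT also ran in opposite directions at some genes. Irf2bpl went from 50.3% to 75.0% in KO line 1 and from 78.9% and 75.3% to 0 in both restricted libraries of WT, and the effects differed by 102 points (limma adjusted p = 5.19e-05). Sertad1, which binds CDK4, went from 56.1% to 80.7% in KO line 1, with WT at 71.1% and 72.3% in control and 0 in restricted medium. Ccn1, a matricellular gene, had 18.6% and 48.8% and was not called in KO line 1 (limma adjusted p = 0.102). Creld2, a chaperone of the endoplasmic reticulum, went from 70.4% to 0, where the WT restricted libraries had 69.3% and 69.7%.

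KO line 2 had few genes with large differences. Called higher were Ptx3, a secreted pentraxin, from 4.32% to 29.2% (limma adjusted p = 0.0073), and Macc1, from 8.74% to 26.9% (limma adjusted p = 0.0486). Ptx3 was also higher under restriction in KO line 1, with 8.70% and 25.1% (limma adjusted p = 0.000429), and it was at 0 in all 4 WT libraries. It lies wholly within another gene. WT replicates had no spread at Ptx3, so limma borrowed the spread of its test from other genes. Macc1 passed the filter of 5% mean cover only through the restricted library of KO line 2, so it had to differ to be tested. Neither call held under every alternative run: Macc1 lost its call in 8 of 11 and Ptx3 in 4 of 11. The largest differences in the other direction did not pass limma's test. Jund, an AP-1 subunit, had 37.7% and 0 (adjusted p = 0.151), Gdf15, a stress-induced hormone gene, 37.0% and 0 (adjusted p = 0.151), Pcgf1, a Polycomb subunit, 37.5% and 0, Rps16 35.0% and 0 and Tuba1b, a tubulin, 28.1% and 0. All 5 have bodies under 4 kb, so a single peak fills a large part of them. Rps16 has 2 annotated pseudogenes, and Tuba1b overlaps another gene over its whole length.

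No list had a called gene in KO line 2 in either direction by limma. Of the 149 olfactory receptor genes, 149 were at 0 in both KO line 1 libraries and 148 in both KO line 2 libraries. Of the 71 ribosomal protein genes, 61 were at 0 in both KO line 2 libraries, and of the 31 matrix genes 24. The highest cover of a matrix gene in KO line 2 was 9.66%.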

How the data were processed

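H3K36me3 ChIP-seq peak lists of 20 libraries were used, each called by the authors on its own library, on GRCm38 per the submitters' processing notes. The authors deposited, for each peak, a fold enrichment (a ratio), a −log10 p, a −log10 q and an integer score; the score was not used. Across the 20 lists, −log10 q reached down to 1.00. The peak caller, its control and the read filters are not given in the sources used here. Per the labels' protocols Drosophila chromatin was added as a spike-in, which was not used for scaling here. The input library was not used here. No read counts were used, so depth is unknown and no counting interval is given.

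Overlapping peaks were merged and their length was measured inside and outside 49943 annotated genes (RefSeq, GRCm38.p6). The 19304 protein-coding genes of 2 kb or more were given a cover value. limma 3.58.1 (R 4.3.3, eBayes with trend and robust settings, Benjamini-Hochberg adjusted p, called under 0.05) was fitted to all 20 libraries in 15 groups, over the 8896 genes whose cover averaged 5% or more in the 8 libraries of day 5. KO libraries were paired by cell line, since the same line was grown in both media. Names inside some KO lists call the lines replicates, and the sample labels were followed. Other steps used Python 3.11.15, numpy 2.4.6, pandas 2.3.3 and matplotlib 3.10.9.

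Named genes were the 12 called lower and 12 called higher with the largest difference in KO line 1, 5 each way in KO line 2 and for each difference of effects, Setd2, and the 4 of each list with the highest mean cover in KO line 1; others are said to be picked after their values were seen. Of these named genes, 3 are not reported here. The members and all lists were chosen with earlier results of these data known, and those of aminoacyl-tRNA synthetases, endoplasmic reticulum folding and oxidative phosphorylation, with the promoters shown, after the cover values were seen. Alternatives were −log10 q ≥ 3, lists shortened to the same covered length or peak number, other filters and model settings, a replicate block, and each WT library left out. On simulated data for KO line 1 (8896 genes, 200 changed), limma recovered 51 of 100 changes of 30 points and 92 of 100 of 60 points with 3.38% false calls, and 26.6% where the KO libraries varied as the WT day 0 pair does.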

Additional observations from a re-analysis of the deposited data

Results flagged for a closer look

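Total cover had opposite signs in the KO lines, with a log2 ratio of restricted over control of -0.70 in KO line 1 and 0.33 in KO line 2. Each line has 1 library per medium, so the difference between the lines was not tested. Cover outside gene bodies was higher under restriction in both KO lines (log2 ratios of 0.49 and 0.50) and lower in WT (-0.65), and the test of that difference gave an exact permutation p = 0.0833, the smallest possible. By limma, the restriction effect on gene cover differed between KO line 1 and WT for 2273 genes and between KO line 1 and KO line 2 for 1273 genes. KO line 2 was listed at 0 in both media at 1073 of these 1273, where the difference is the KO line 1 change alone, and KO line 1 was at 0 in both media at 242 of the 1139 genes more positive there than in WT. No group of this comparison has 4 or more libraries, so no library could be tested as an outlier.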

How the results depend on the processing

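The mean log2 ratio of total cover was 0.33 without KO line 1, and leaving out either line gave -0.70 to 0.33; for peak number the range was -0.30 to 0.23. The difference between KO lines and WT was -0.13 at −log10 q ≥ 3, and -0.28 to 0.74 when each library or line was left out (-0.28 without KO line 2). Gene-body cover of KO line 2 without peaks at starts had a log2 ratio of 0.20, and its promoters touched were 117 and 2 at −log10 q ≥ 3.

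The change in marked genes of KO line 1, -982, was -1741 with a threshold of 25% cover, -374 with 75% and -626 with lists of the same covered length. At −log10 q ≥ 3, limma called 1018 genes in KO line 1, 0 in KO line 2, 520 between the lines and 1264 between KO line 1 and WT. With lists of the same covered length it called 1174 genes in KO line 1, 119 higher and 1055 lower, 1 in KO line 2 and 594 between the lines, and in WT 1396 higher and 2292 lower against 390 and 3957. Without the filter on low cover it called 503 genes in KO line 2, 2417 between the lines, and in KO line 1 681 higher and 2366 lower. In KO line 2, 0 genes were called from the 8 libraries of day 5 or without trend and robust settings, 1 with lists of the same peak number, and 0 to 4 with each WT library left out. WT calls were 2768 to 3525 with a WT library left out, 2768 without WT_D5_CTL replicate 1. The causes were not tested.

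With the replicate block limma called 2094 genes in KO line 1, 1 in KO line 2, 1096 between the lines, 2043 between KO line 1 and WT and 4184 in WT. The pairing of KO libraries by line is part of the library tests, and without that block the p-values of gene-body cover, cover outside genes and share were 0.667.

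Among named genes, 37 of 48 called in KO line 1 kept their call under every alternative that tested them. Those that lost it under at least 1 included Ssr2, Ndufa4, Tnnc1, Ccnd1, Mcm6, Ddit3, Mtap, Nsd3, Kdm2a and Psip1. At −log10 q ≥ 3 the sign turned for Ssr2 (KO line 1 minus WT, 11.9 points, not called), Runx2 (-2.23 points, not called) and Cox8a (-67.9 points, called).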
